A study of Mus musculus with 12 samples.

Results

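The 10 genes described here form the receptors and the intracellular chain through which cytokines of the interleukin-6 (IL-6) family signal: Il6ra, Cntfr and Il11ra1, Il6st, Osmr and Lifr, Jak1 and Jak2, and Stat3 and Socs3. They were chosen by symbol, and all 10 were among the 22609 gene symbols counted in each library. The libraries were made from sensory neurons of the tongue, whose cell bodies lie in the trigeminal ganglion (TG). The tongue was injected with wheat germ agglutinin (WGA), a lectin tracer that axons transport back to the soma, and WGA-positive cells were sorted and their RNA sequenced with SMART-seq2, a protocol for small amounts of RNA. There were 4 groups of 3 libraries each, which were normal males (MN), males with a tongue tumor (MT), normal females (FN) and females with a tongue tumor (FT).

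All mice were adult Balb/c athymic nude mice, which lack a thymus and so most T cells. Tumor-bearing mice had received 350000 HSC3 cells in the tongue, which are human cells from an oral squamous cell carcinoma. WGA was injected on day 13 and ganglia were taken on day 15. A normal library pooled 4 TGs of 2 mice, and a tumor library pooled 4 TGs of 4 mice, from the side of the tumor. By the sample labels the normal mice received no cells and a WGA solution of 0.5%, whereas the methods of the study state an equal number of human oral keratinocytes (OKF6-TERT2) and a stronger WGA solution. The tumor comparisons were therefore made against tongues that may or may not have been injected with cells.

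Cytokines of the IL-6 family share the receptor chain gp130, the product of Il6st. Beside gp130 a cytokine uses a further receptor. Some of these only bind the cytokine (Il6ra for IL-6, Il11ra1 for IL-11, Cntfr for ciliary neurotrophic factor). Others also signal (Osmr for oncostatin M, Lifr for leukemia inhibitory factor). The complex with gp130 activates Janus kinases, chiefly JAK1, which phosphorylate STAT3. STAT3 then enters the nucleus, and one of the genes it induces is Socs3, whose product binds gp130 and the kinases and ends the signal. In sensory neurons the pathway is known for the response to nerve injury and for the sensitizing and itch-inducing actions of IL-6, oncostatin M and interleukin-31 (IL-31), whose receptor pairs Osmr with Il31ra.

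STAT dimers bind DNA at a palindrome of 9 bases, TTCNNNGAA, where N is any base. Among the 10 genes it was found only upstream of Socs3, in a search of the 250 bases before each RefSeq start of a gene (RefSeq table of GRCm38.p6), a motif that reads the same on both strands. The Socs3 sequence was found unchanged in build mm9, the build of the files, at chr11:117830681-117830930 on the minus strand. It is shown because Socs3 was the one of the 10 genes with a difference that met the criteria of the study in male mice, and the capitals mark the motif, whose first base lies 154 bases before the start.
Socs3: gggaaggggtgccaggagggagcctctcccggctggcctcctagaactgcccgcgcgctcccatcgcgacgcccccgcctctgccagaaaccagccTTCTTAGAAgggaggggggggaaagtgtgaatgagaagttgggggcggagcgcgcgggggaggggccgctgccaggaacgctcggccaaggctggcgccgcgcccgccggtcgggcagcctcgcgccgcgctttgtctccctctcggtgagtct
The window lies inside the longer span that GENCODE release M1 gives Socs3, chromosome 11 from 117827393 to 117831361, minus strand. Of all 32851 RefSeq promoters 7.02% held the motif in the same window, and of 27025 genes with a promoter 8.13% did. Its presence upstream of 1 of 10 genes is therefore near the share of genes at large. Other genes of the lists used here with the motif were Gab1, Icam1, Irf1, Il31ra, Reg3b, Scn9a and Mag.

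The genes lie on 6 chromosomes of build mm9, by GENCODE M1. Osmr (6763577 to 6824313, minus strand) and Lifr (7079559 to 7147489, plus strand) are neighbors on chromosome 15, and Cntfr (41604529 to 41644121, minus strand) and Il11ra1 (41647021 to 41716347, plus strand) are neighbors on chromosome 4, where Jak1 (100824972 to 100937887, minus strand) also lies. Stat3 is on chromosome 11 (100746412 to 100800854, minus strand), as is Socs3, Il6st on chromosome 13 (113265216 to 113297068, plus strand), Il6ra on chromosome 3 (89673246 to 89717084, minus strand) and Jak2 on chromosome 19 (29326318 to 29387570, plus strand).

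The libraries held 4592891 to 8922011 reads on genes. CPM, used below, are reads of a gene per 1000000 of these, and RPKM divides the CPM by the exon length in kilobases. The 12 listed markers of sensory neurons summed to 14441 to 28658 CPM, and 7 markers of satellite glia, the cells that wrap these neurons, to 3530 to 17922 CPM, so that the sorted material was neuronal with glial RNA in it. Markers of macrophages (11 genes) summed to 32.1 to 50.6 CPM in MN, 31.2, 36.3 and 321 CPM in MT replicates 1 to 3, and 151 to 553 CPM in the female libraries. FN replicate 2, FT replicate 2 and FT replicate 3 stood apart from the other 9 libraries, with 52.6% to 68.4% of all reads mapped to several places against 43.0% to 45.5%. Log2FCs of the 10 genes named in female comparisons, and counts of the STAT3-responsive list there, are given from all libraries and from a fit of the other 9, in which FN holds 2 libraries and FT 1. A log2FC is the log2 fold change. In bulk RNA, fewer cells of a type and less RNA per cell cannot be told apart.

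At the level of the receptors, the sorted material of normal males had more RNA per exon length of the signaling chains than of the chains that only bind a cytokine. The part of glial RNA in these levels was not tested. Lifr had the highest level per exon length of the 10 genes, 119.7 ± 6.71 RPKM (SD, n = 3), above 97.6% of the 21627 genes with a length. Stat3 followed with 72.1 ± 1.76 RPKM and Jak1 with 52.4 ± 3.76 RPKM, and these 3 did not overlap with each other or with any other gene of the 10 in MN. Osmr (37.1 ± 6.07 RPKM), Socs3 (34.9 ± 9.47 RPKM) and Il6st (26.0 ± 2.72 RPKM) came next, and the range of Socs3 overlapped with both of its neighbors. Cntfr had 9.34 ± 2.13 RPKM. The lowest were Jak2 (2.00 ± 0.52 RPKM), Il6ra (0.91 ± 0.60 RPKM) and Il11ra1 (0.79 ± 0.12 RPKM), whose ranges overlapped from one to the next.

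**Figure D1:**
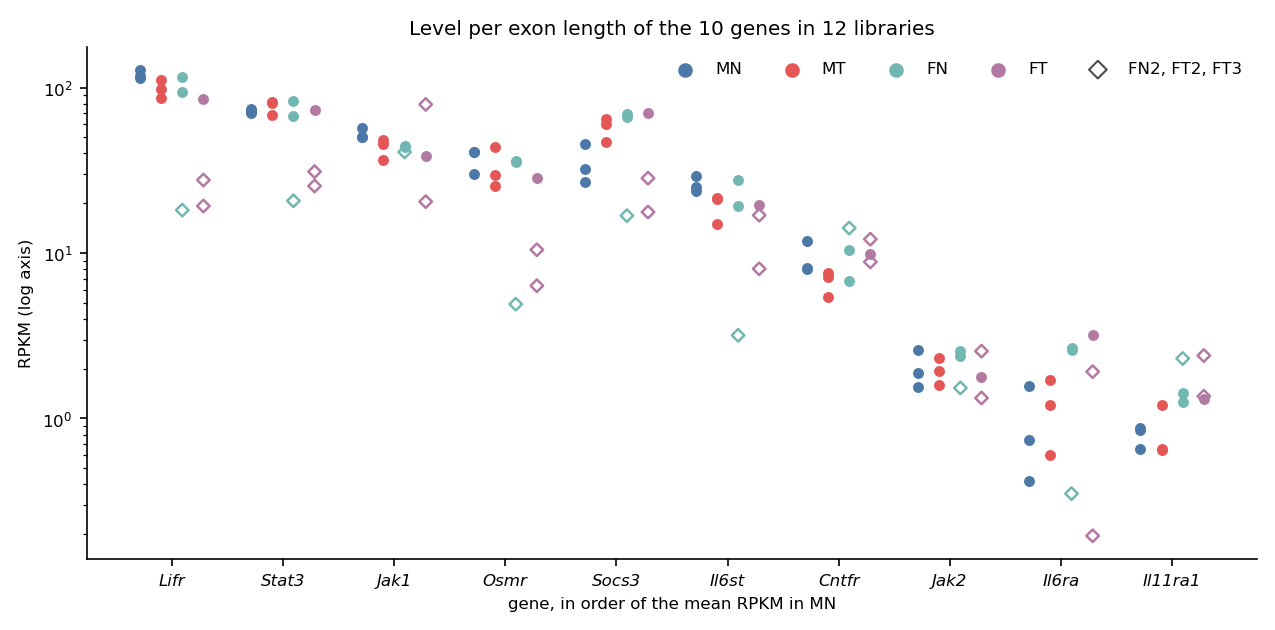
RPKM of the 10 genes on a log axis in each of 12 libraries, in order of the MN mean, with 1 point per library colored by group and open diamonds for FN replicate 2, FT replicate 2 and FT replicate 3. Lifr, Stat3 and Jak1 lie at the top and Jak2, Il6ra and Il11ra1 lie at the bottom, and the open diamonds of Lifr, Stat3 and Osmr lie below every filled point of the same gene.

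The low level of 3 of these genes limits what can be said of them. Il6ra rested on 3 to 78 reads per library, Il11ra1 on 21 to 79 and Jak2 on 48 to 113, whereas Lifr had 1311 to 11460 reads. Il11ra1 has a near-identical copy in the mouse genome, Il11ra2, which was at 0 reads in all 12 libraries, a count that allows up to 0.336 to 0.653 CPM in a library (3 reads, counting error only). Reads shared by the copies would map to several places, so the values of Il11ra1 are uncertain. Exons of Stat3 overlap those of Stat5a on the other strand over 72 bases, 0.756% of the exon length of Stat3.

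The ligands of these receptors had few reads in the same libraries. Il6 had 0.436 to 7.13 CPM over the 12 libraries, Ctf1 (cardiotrophin-1) 1.31 to 6.27 CPM, Clcf1 0.418 to 1.48 CPM and Osm 0 to 4.94 CPM. Lif, Cntf, Ctf2 and Il27 had at most 2 reads in any library, and Il31 had none in any, which allows up to 3 reads. Il31ra, the partner of Osmr in the IL-31 receptor, had 4.57 to 69.2 CPM.

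The male comparison asked whether a tongue tumor goes with another level of these genes. Socs3 met the criteria for differentially expressed genes (DEGs) that the methods of the study state, and it was higher in MT. The criteria are a fold change above 1.5, an unadjusted p below 0.05 and more than 5 RPKM on average in one of the groups. The study also lists Socs3 among its genes higher in MT, from these same libraries, so its rise is not independent evidence. The receptors Il6st, Lifr and Cntfr and the kinase Jak1 had lower values in MT without overlap of the libraries, each by less than 1.5-fold. Stat3 itself, Osmr, Jak2, Il6ra and Il11ra1 had overlapping groups.

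Socs3, the feedback inhibitor, had 78.2, 131 and 93.4 CPM in MN replicates 1 to 3 and 187, 135 and 175 CPM in MT replicates 1 to 3. The lowest MT value lay just above the highest MN value, and the other MT values were well above all of MN. The MT mean was 165 ± 27.0 CPM and the MN mean 101 ± 27.4 CPM (SD, n = 3 each), a log2FC of 0.73 with a standard error (SE) of 0.19, or 1.65-fold. By the edgeR quasi-likelihood test across 13322 genes the unadjusted p was 0.0031 and the Benjamini-Hochberg adjusted p was 0.358. DESeq2 gave Socs3 nearly the same fold change and an adjusted p of 0.030, and called 0.383% of all genes tested. Leaving out 1 library at a time moved the log2FC of Socs3 between 0.57 (without MN replicate 1, 1.49-fold, so that the criteria were no longer met) and 0.98 (without MN replicate 2).

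Il6st, which encodes gp130, had 131, 124 and 151 CPM in MN and 77.9, 110 and 112 CPM in MT. Each MT library lay below each MN library, and the log2FC was -0.43 (SE 0.13, unadjusted p = 0.0097, adjusted p = 0.544). Lifr, the receptor of leukemia inhibitory factor, had 1183, 1213 and 1315 CPM in MN and 896, 1007 and 1146 CPM in MT, with a log2FC of -0.27 (SE 0.09, unadjusted p = 0.015, adjusted p = 0.604). Both signaling chains had their 3 MT values under their 3 MN values, with gaps that were small beside the spread within groups. Cntfr, the receptor of ciliary neurotrophic factor, had 22.4, 22.8 and 32.8 CPM in MN and 19.998, 15.0 and 21.1 CPM in MT, with a log2FC of -0.46 (SE 0.19, adjusted p = 0.703). Jak1, the main kinase bound to gp130, had 363, 363 and 410 CPM in MN and 263, 328 and 348 CPM in MT, with a log2FC of -0.26 (SE 0.10, adjusted p = 0.701). None of these differences, of at most 1.37-fold, met the criteria by edgeR. With limma-voom Cntfr met them and was lower in MT.

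Osmr, the signaling receptor of oncostatin M and a chain of the IL-31 receptor, had 197, 146 and 196 CPM in MN and 123, 142 and 211 CPM in MT. The highest value of all was in MT, so the groups overlapped, and the log2FC was -0.17 (SE 0.18, adjusted p = 0.893). Stat3 had 705, 683 and 673 CPM in MN and 653, 779 and 765 CPM in MT, with a log2FC of 0.11 (SE 0.09, adjusted p = 0.862). Jak2 had a log2FC of -0.02 (SE 0.24), Il6ra of 0.35 (SE 0.50) and Il11ra1 of 0.10 (SE 0.34). For Il6ra and Il11ra1 these errors leave room for changes of the size seen in Socs3.

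Of the 10 genes, 0 had an edgeR adjusted p under 0.05, where 0.045% of all genes tested did, and DESeq2 called 1 (Socs3) and limma-voom 0. At an unadjusted p under 0.05 there were 5 of 10, 1 higher and 4 lower in MT, against 6.92% of all genes tested. The criteria were met by 1 of 10, against 0.878% of all genes tested. The groups did not overlap for 5 of 10, against 13.4% of all genes tested, of which 7.45% were lower and 5.91% higher in MT. The median log2 fold change was -0.10 over the 10 genes and 0.0035 over all genes.

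**Figure D2:**
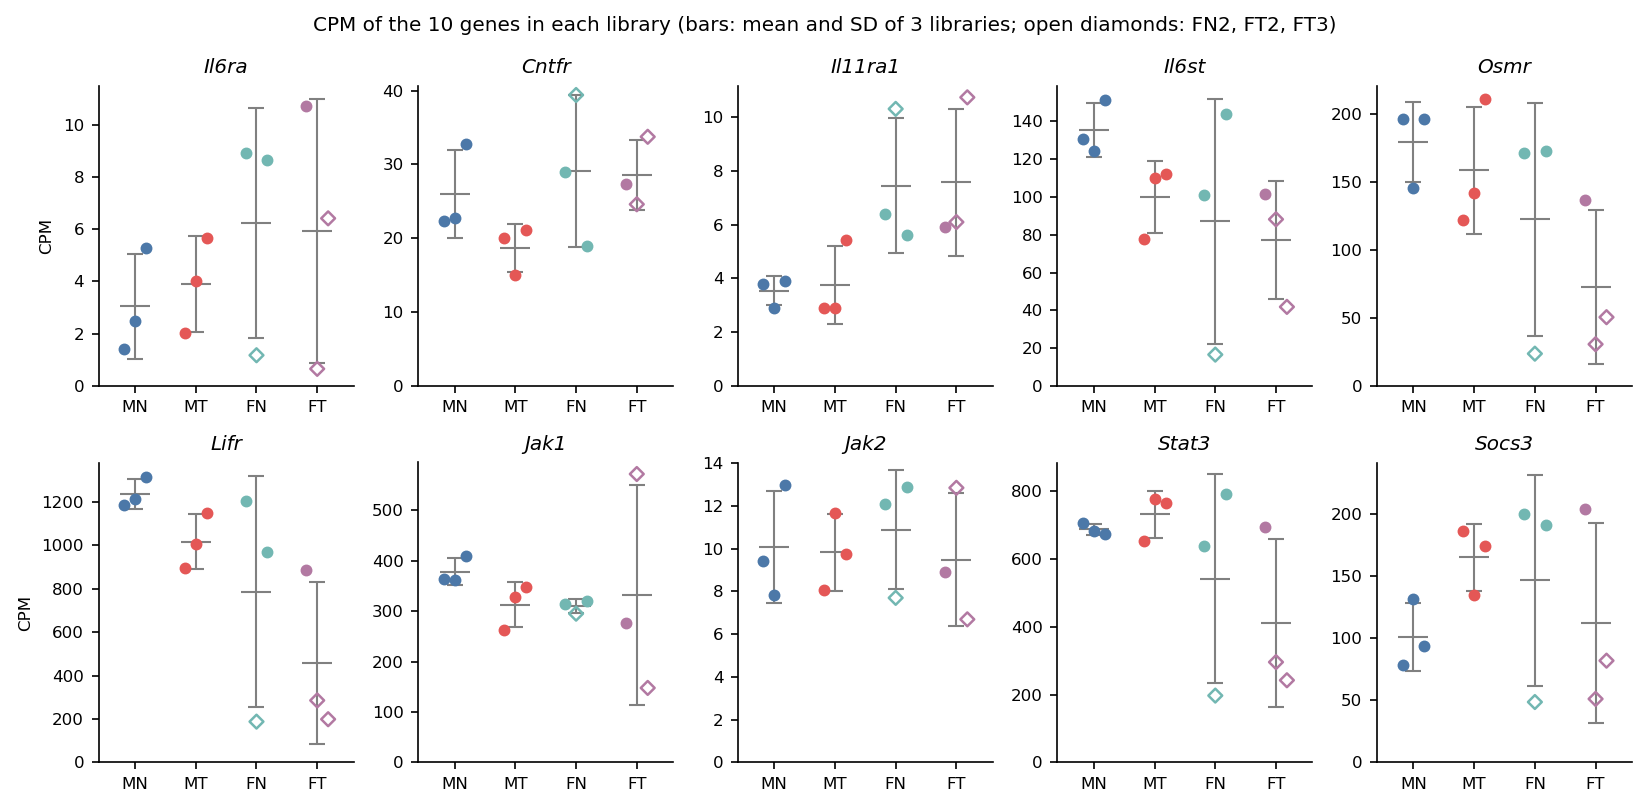
CPM of each of the 10 genes in the 12 libraries, 1 panel per gene with its own axis from 0, with the mean and SD of 3 libraries per group and open diamonds for FN replicate 2, FT replicate 2 and FT replicate 3. In males the MT points of Socs3 lie above and those of Il6st, Lifr, Cntfr and Jak1 below the MN points, and in females the open diamonds set most of the spread.

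Genes known to respond to STAT3 were examined next in the male comparison, from a list of 20, some of which the study also drew from these libraries, so that their direction is not independent evidence. Of 19 tested, 11 had an unadjusted p under 0.05, all higher in MT, against 6.92% of all genes tested in either direction. The criteria were met by 5, against 0.878% of all genes tested, and 0 had an edgeR adjusted p under 0.05. The median log2FC of the list was 0.42, against 0.0035 over all genes. Those that met the criteria and were higher in MT were Timp1 (an inhibitor of matrix metalloproteinases), Lcn2 (a secreted iron-carrier binding protein), Lrg1 (a secreted glycoprotein), Cebpd (a transcription factor of the acute phase response) and Myc (a transcription factor of cell growth).

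Cebpd had 37.4, 38.6 and 51.0 CPM in MN and 73.2, 63.5 and 77.4 CPM in MT, with no overlap and a log2FC of 0.77 (SE 0.14, adjusted p = 0.128). Timp1 had 14.3, 7.17 and 9.64 CPM in MN and 19.9, 22.4 and 26.6 CPM in MT, a log2FC of 1.17 (SE 0.24, adjusted p = 0.217). Both therefore separated the groups by more than Socs3 did relative to their errors. Myc had 32.8, 41.0 and 29.8 CPM in MN and 61.3, 46.7 and 50.4 CPM in MT (log2FC 0.63, SE 0.16, adjusted p = 0.358). Lcn2 and Lrg1 overlapped between the groups, with log2FCs of 1.24 (SE 0.43) and 0.86 (SE 0.31), and MN replicate 3 lay above the lowest MT library for both. Serpina3n, a protease inhibitor, had the smallest p of the list with a difference under 1.5-fold, 605, 741 and 712 CPM in MN and 934, 993 and 1057 CPM in MT (log2FC 0.55, SE 0.10, adjusted p = 0.128). Junb, Pim1, Pim3, Mcl1 and Bcl2l1 were also higher in MT at an unadjusted p under 0.05, by 1.23 to 1.36-fold. Bcl3, Ccnd1, Cebpb and Vegfa had log2FCs of -0.37 to -0.01, none with an unadjusted p under 0.05.

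Macrophage markers were high in MT replicate 3 alone among the male libraries. Without that library, 11 genes of the STAT3 list were higher in MT at an unadjusted p under 0.05 and 1, Ccnd1, was lower, against 11.5% of all genes tested, and 6 met the criteria, against 1.18%. The median of the list was then 0.37, and Serpina3n had an adjusted p of 0.038 by edgeR. Of the 7 macrophage markers tested without it, 2 had positive log2FCs. The part of macrophage RNA in these values was not tested. Socs3 without that library had a log2FC of 0.71 (SE 0.19). Without another library the number of the list that was higher at an unadjusted p under 0.05 lay between 8 (without MN replicate 1) and 11.

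Neuronal genes known to respond to gp130 cytokines or to nerve injury formed a list of 7, of which 5 were tested. All 5 were higher in MT at an unadjusted p under 0.05, against 6.92% of all genes tested in either direction. An edgeR adjusted p under 0.05 was found for 2 of them, against 0.045% of all genes. The median log2FC was 0.58. The list was chosen with earlier results of these data known. The study had named Sprr1a and Gal among its top male genes from these same libraries, so their rise is not independent evidence. Sprr1a, a growth-associated gene of injured axons, had 2.81, 1.35 and 3.33 CPM in MN and 47.9, 43.3 and 51.6 CPM in MT, and it rose 19.4-fold (log2FC 4.27, SE 0.24, adjusted p = 7.1e-05). Gal, which encodes the neuropeptide galanin, had 61.4, 41.6 and 63.7 CPM in MN and 253, 273 and 326 CPM in MT, and it rose 5.17-fold (log2FC 2.37, SE 0.15, adjusted p = 0.00014). In both genes the lowest MT value lay far above the highest MN value. Atf3, Tac1 and Gap43, an injury-induced transcription factor, the substance P precursor and a growth cone protein, had log2FCs of 0.58, 0.42 and 0.28, with adjusted p by edgeR of 0.564, 0.418 and 0.597. Vip and Reg3b had too few reads for the test.

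**Figure D3:**
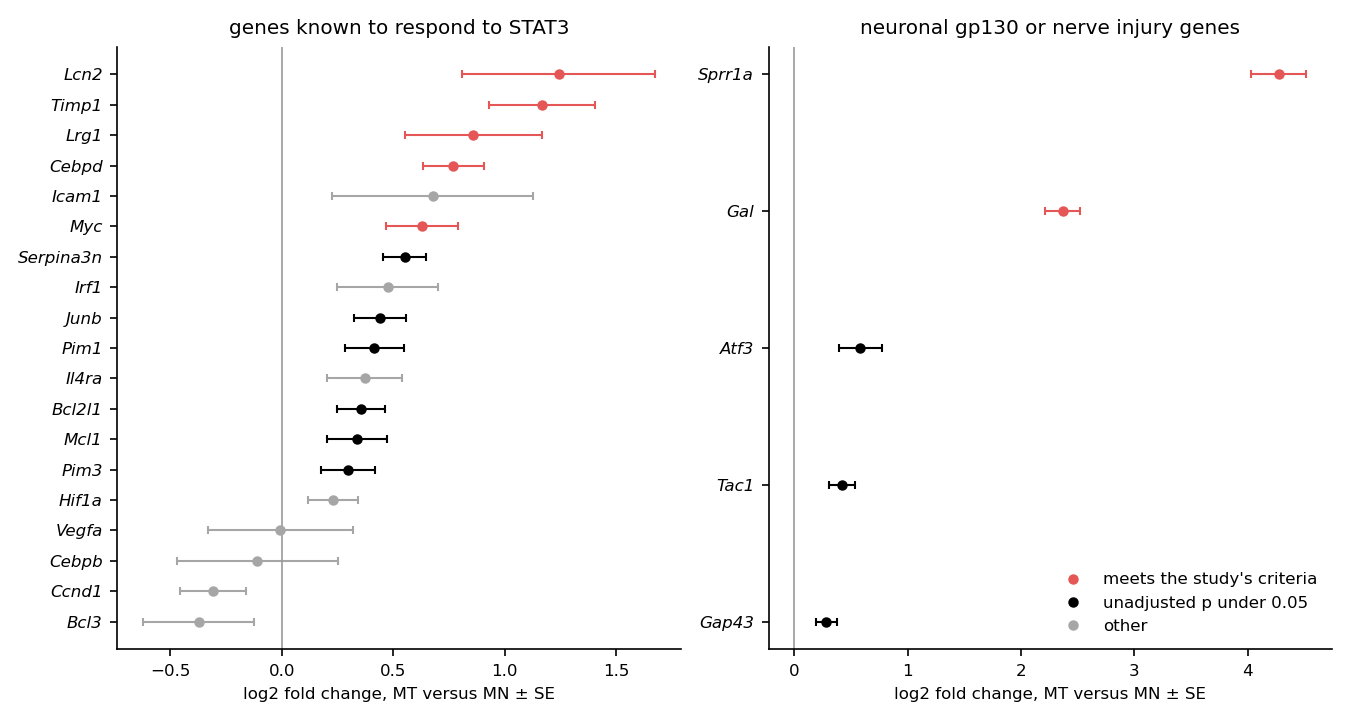
Log2 fold change of MT versus MN with its standard error for genes known to respond to STAT3 (left) and for neuronal genes known to respond to gp130 cytokines or nerve injury (right), in red where the criteria of the study were met, in black at an unadjusted p under 0.05 and in gray otherwise. Most points on the left lie between 0 and 1.24, and Sprr1a (4.27) and Gal (2.37) lie far to the right of the rest.

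Few genes of the other parts of the pathway passed a threshold in males. Of 15 inhibitors and adaptors tested, 1 had an unadjusted p under 0.05, which is near the 6.92% of all genes tested. It was Pias3, a STAT3 inhibitor, with 18.98, 25.0 and 25.5 CPM in MN and 30.3, 31.4 and 39.1 CPM in MT (log2FC 0.55, SE 0.15, adjusted p = 0.428). Of the other kinases and STATs 7 of 8 were tested and 0 had an unadjusted p under 0.05, with log2FCs from -0.27 (Stat5b) to 0.25 (Jak3). Of the ligands, Il6 had a log2FC of 0.50 (SE 0.38) and Ctf1 of 0.14 (SE 0.34).

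Il31ra, the partner of Osmr, met the criteria and was lower in MT, with 69.2, 39.9 and 67.1 CPM in MN and 25.4, 29.3 and 49.1 CPM in MT (log2FC -0.75, SE 0.25, adjusted p = 0.572), with some overlap of the groups. It is a marker of the itch-sensing neurons that carry both receptor chains, and 3 other markers of them also met the criteria and were lower in MT. These were the neuropeptide genes Sst (16.9, 7.85 and 14.2 CPM in MN, 3.14, 3.47 and 5.56 CPM in MT) and Nppb, and the leukotriene receptor gene Cysltr2 (11.8, 8.29 and 11.6 CPM in MN, 3.52, 5.56 and 5.80 CPM in MT). Nts, which encodes neurotensin, was higher in MT and met the criteria. The adjusted p by edgeR of these 4 genes was 0.205 to 0.701. In the same libraries the groups of Osmr overlapped, as given above. Il31ra no longer met the criteria without MN replicate 1 (log2FC -0.62), MT replicate 1 (-0.58) or MT replicate 2 (-0.65). In each of those fits 2 of the 6 listed markers of these neurons met the criteria and were lower in MT, against 4 with all libraries. Between the normal groups, FN versus MN, 5 of the 6 also had negative log2FCs, with a median of -0.84. There 1 met the criteria and was lower in FN, and 1 was higher. In the fit of 9 libraries 3 met them and were lower in FN, among them Il31ra, and 1 was higher.

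In females the tumor comparison found 0 of the 10 genes past a threshold by edgeR, and 3 of the 6 libraries stood apart. With limma-voom 1 of 10, Lifr, met the criteria and was lower in FT (log2FC -1.09, SE 0.46, unadjusted p = 0.029), against 2.63% of all genes tested. Socs3 had 200, 48.7 and 191 CPM in FN and 204, 51.2 and 82.0 CPM in FT, so that FN replicates 1 and 3 and FT replicate 1 lay together, above the highest MT value, and the 3 libraries that stood apart lay below them. Osmr had 172, 23.8 and 173 CPM in FN and 137, 30.7 and 50.6 CPM in FT, and Lifr 1206, 188 and 967 CPM in FN and 884, 285 and 199 CPM in FT, with the same division. Over 6 libraries the log2FCs of FT versus FN were -0.27 (SE 0.64) for Socs3, -0.63 (SE 0.71) for Osmr and -0.66 (SE 0.73) for Lifr. These errors are about as large as the male difference in Socs3 (0.73), so a difference of that size was not detectable here.

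Of the 10 genes, 0 had an edgeR adjusted p under 0.05 in FT versus FN, as did 0.0% of all genes tested, and DESeq2 and limma-voom also called 0. At an unadjusted p under 0.05 there were 0, against 1.19% of all genes, 0 met the criteria, against 0.761%, and 0 had groups without overlap, against 2.29%. In the fit of 9 libraries, 0 of 10 had an unadjusted p under 0.05, against 4.66% of all genes, and the log2FCs were 0.07 for Socs3 (SE 0.26), -0.33 for Osmr (SE 0.25) and -0.29 for Lifr (SE 0.15). Of 19 genes known to respond to STAT3, 8 had positive and 11 negative values, with a median of -0.07, and 1 met the criteria, Lcn2, which was lower in FT (log2FC -2.25, SE 0.87). Lcn2 had 51.2, 270 and 40.5 CPM in FN, and FN replicate 2 alone lay far above the other 2. In the fit of 9 libraries the direction of the list turned, with 14 positive and 6 negative values of 20 and a median of 0.09. There Lcn2 was at -0.01 (SE 0.60), and 1 gene met the criteria, Icam1, an adhesion molecule, which was higher in FT (log2FC 1.45, SE 0.60, adjusted p = 0.997), against 0.978% of all genes.

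Whether the tumor effect differed by sex was tested as an interaction in a fit of all 12 libraries. Of the 10 genes, 0 had an edgeR adjusted p under 0.05, as did 0.0% of all genes tested, and 0 had an unadjusted p under 0.05, against 1.47%. DESeq2 and limma-voom also called 0. Socs3 had the largest value, -1.04 (SE 0.67, unadjusted p = 0.142), which is the log2FC of FT versus FN minus that of MT versus MN. With 9 libraries it was -0.66 (SE 0.32, unadjusted p = 0.063). Of the listed neuronal genes, 5 of 5 tested had negative values, 1 of them at an unadjusted p under 0.05. Of the STAT3 list 16 of 20 were negative, 2 of them at that p. Over all genes tested 44.7% had positive values. Sprr1a had -4.16 (SE 1.18, unadjusted p = 0.0033, adjusted p = 1.00), and with 9 libraries -4.18 (SE 0.93). In FT versus FN 4 of the 5 neuronal genes had positive log2FCs and 1 a negative one. The study lists Sprr1a and Gal as higher in FT as well.

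**Figure D4:**
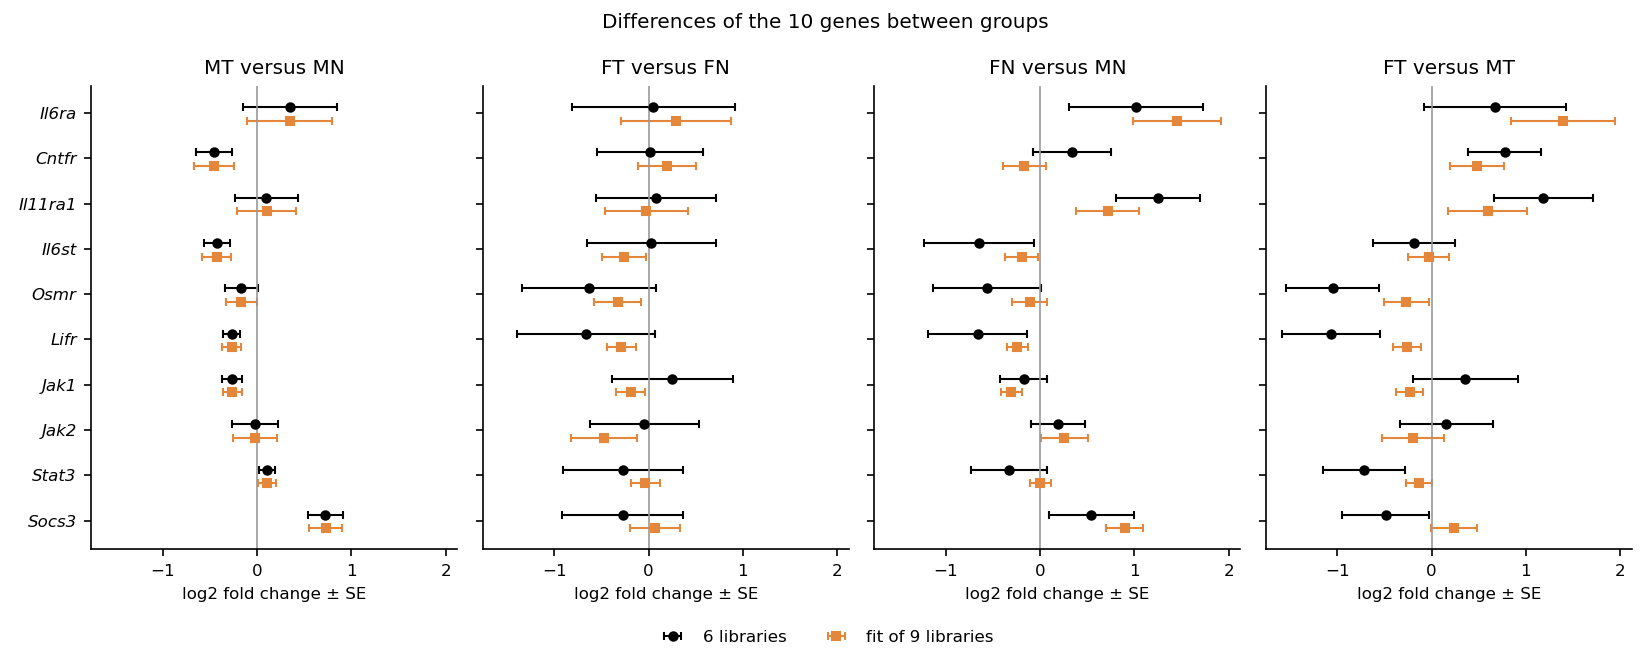
Log2 fold change with its standard error of the 10 genes in 4 comparisons, in black for the 6 libraries of the groups compared and in orange for a fit of 9 libraries. In MT versus MN the fits nearly coincide, with Socs3 at 0.73 on the right, and in the 3 comparisons with female groups the black bars are wider and several values lie far from the orange ones.

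Normal females and normal males were compared next. Il11ra1 and Jak1 were the genes whose libraries did not overlap. Il11ra1 had 3.80, 2.91 and 3.90 CPM in MN and 6.41, 10.3 and 5.62 CPM in FN, a log2FC of 1.25 (SE 0.44, adjusted p = 0.631), at a level under the RPKM limit of the criteria, and with 9 libraries 0.72 (SE 0.33). Jak1 had 314, 295 and 321 CPM in FN, below each MN library (363 to 410 CPM), with a log2FC of -0.17 (SE 0.25). Of the 10 genes, 0 had an edgeR adjusted p under 0.05, as did 0.0% of all genes, 1 an unadjusted p under 0.05, against 5.8%, 0 met the criteria, against 3.3%, and 2 did not overlap, against 20.1%. DESeq2 called 0 and limma-voom, which gives less weight to libraries of large spread, called 2, Il6ra and Socs3, against 7.55% of all genes.

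Without FN replicate 2, the level of Socs3 was higher in normal females than in normal males. FN replicates 1 and 3 had 200 and 191 CPM against 78.2 to 131 CPM in MN, a log2FC of 0.90 (SE 0.17, adjusted p = 0.0078 in the 5 libraries left), where 5.53% of all genes were called. With FN replicate 2 in the fit it was 0.54 (SE 0.45, adjusted p = 0.641). In the fit of 9 libraries Socs3 had 0.90 (SE 0.20, adjusted p = 0.072) and was the 1 of 10 that met the criteria, against 3.18% of all genes, and 3 of 10 had an unadjusted p under 0.05, against 15.2%. The other 2 were Il6ra, with 8.93 and 8.63 CPM in FN replicates 1 and 3 against 1.41, 2.47 and 5.28 CPM in MN (log2FC 1.45, SE 0.47), and Jak1 (log2FC -0.30, SE 0.11). Il6ra in FN replicate 2 was 1.17 CPM, below all of MN, and with that library the log2FC was 1.02 (SE 0.71).

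The STAT3-responsive list also had higher values in normal females. Of 18 tested, 5 met the criteria and were higher in FN, against 3.3% of all genes tested in either direction. These were Junb, Cebpb, Cebpd, Lcn2 and Lrg1, with adjusted p by edgeR of 0.631 each. For 4 of them FN replicate 2 was far above the other FN libraries, with 244 CPM of Cebpd against 81.2 and 84.5, 270 CPM of Lcn2 against 51.2 and 40.5, 299.7 CPM of Lrg1 against 91.6 and 87.5, and 33.4 CPM of Cebpb against 8.67 and 9.04. Junb, a transcription factor of the AP-1 family, had 146, 148 and 162 CPM in MN and 249, 267 and 262 CPM in FN, a log2FC of 0.90 (SE 0.27) that all FN libraries shared. In the fit of 9 libraries 3 of 19 met the criteria, Junb, Cebpd and Lrg1, against 3.18% of all genes. An adjusted p under 0.05 was found for 2 that rose in FN, against 0.391% of all genes. These were Cebpd (log2FC 0.92, SE 0.14, adjusted p = 0.031) and Junb (log2FC 0.70, SE 0.12, adjusted p = 0.040). Sprr1a and Gal also met the criteria and were higher in FN, with 8.55, 167 and 53.7 CPM for Sprr1a and 109, 1245 and 383 CPM for Gal, against at most 3.33 and 63.7 CPM in MN. The spread among the FN libraries was more than 10-fold for both. With 9 libraries Sprr1a had a log2FC of 3.59 (SE 0.61) and Gal of 2.10 (SE 0.37), each with an adjusted p of 0.040. Markers of satellite glia summed to 8157 to 16443 CPM in FN and 4139 to 4964 CPM in MN, with positive log2FCs in 6 of 6 tested, and macrophage markers to 190 to 423 CPM in FN, with positive log2FCs in 8 of 8 tested. In the fit of 9 libraries markers of sensory neurons had negative log2FCs in 11 of 12, of which 6 had an unadjusted p under 0.05 and 1 an adjusted p under 0.05, with a median of -0.24. There the markers of endothelial cells had positive ones in 8 of 8, of which 7 had an unadjusted p under 0.05, with a median of 0.92, those of satellite glia in 6 of 6, with a median of 0.88, and those of macrophages in 11 of 11, with a median of 2.88. Their part in the values of Socs3, Il6ra and Il11ra1 was not tested.

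Between tumor-bearing females and males, Lifr and Osmr had lower values and Il11ra1 and Cntfr higher ones in FT. Lifr had a log2FC of -1.07 (SE 0.51, adjusted p = 0.517) without overlap, and Osmr of -1.05 (SE 0.49, adjusted p = 0.512). For Il11ra1 it was 1.19 (SE 0.53, adjusted p = 0.512) and for Cntfr 0.77 (SE 0.39, adjusted p = 0.519), both without overlap. Of the 10 genes, 0 had an edgeR adjusted p under 0.05, as did 0.0% of all genes, 1 an unadjusted p under 0.05, against 9.59%, 0 met the criteria, against 7.22%, and 3 did not overlap, against 17.8%. DESeq2 and limma-voom also called 0. In the fit of 9 libraries, in which FT is 1 library assumed to vary like the others, Lifr was at -0.26 (SE 0.15), Osmr at -0.27 (SE 0.23), Il11ra1 at 0.59 (SE 0.42) and Cntfr at 0.48 (SE 0.29), and 1 of 10, Il6ra at 1.40 (SE 0.55, against 0.67 with SE 0.75 in 6 libraries), had an unadjusted p under 0.05, against 8.27% of all genes. Socs3 had a log2FC of -0.49 (SE 0.46) with 6 libraries and 0.24 (SE 0.25) with 9.

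The 3 libraries that stood apart changed the order of the 10 genes. Osmr was 7.11, 5.52 and 3.37-fold below the median of the other 9 libraries in FN replicate 2, FT replicate 2 and FT replicate 3, in that order. Lifr was 6.09, 4.01 and 5.75-fold below it, and Stat3 was 3.52, 2.35 and 2.87-fold below it. For each of these 3 genes all 3 libraries lay below all 9, which held for 29.8% of 10987 genes with a median over 5 CPM. Socs3 was 3.56, 3.39 and 2.12-fold below the median and Il6st 6.59, 1.27 and 2.66-fold. Cntfr and Il11ra1 lay above the median in all 3, by 1.10 to 2.55-fold, and Jak1 was 1.74-fold above it in FT replicate 2 and 2.21-fold below it in FT replicate 3.

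**Figure D5:**
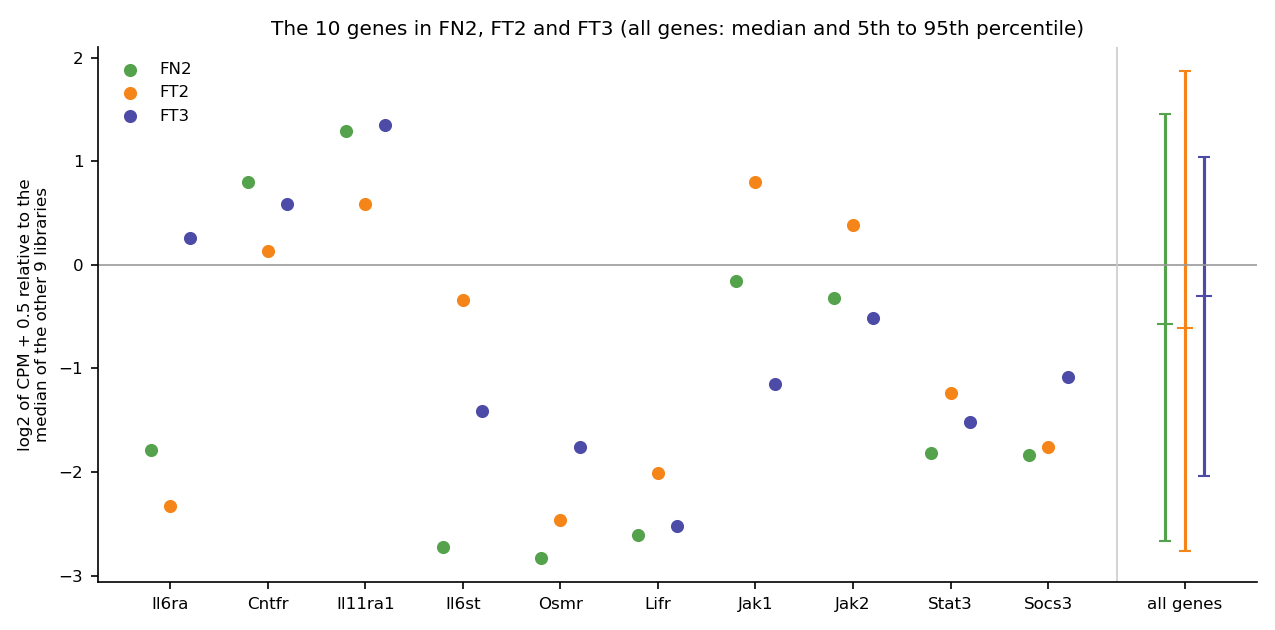
Log2 of CPM + 0.5 of the 10 genes in FN replicate 2, FT replicate 2 and FT replicate 3, relative to the median of the other 9 libraries, with the median and the 5th to 95th percentile of 10987 genes at the right. Osmr, Lifr and Stat3 lie below 0 in all 3 libraries and Cntfr and Il11ra1 above 0.

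The shifts differed with the exon length of a gene. Over all genes the median log2 shift in FN replicate 2 was 1.06 for exon lengths under 2000 bases, -0.79 for 2000 to 5000 bases and -0.91 for longer ones, and in FT replicate 3 the same medians were 0.83, -0.30 and -0.70. In FT replicate 2 they were -0.12, -0.93 and -0.34. Lifr (10330 bases), Stat3 (9527 bases), Jak1 (7227 bases), Il6st (5207 bases) and Jak2 (5030 bases) were in the longest class, and Osmr (4835 bases), Il11ra1 (4471 bases), Il6ra (3343 bases), Socs3 (2891 bases) and Cntfr (2782 bases) in the middle one. Genes of both classes lay on either side of the median of the 9 libraries. In the longest class Jak2 was 1.30-fold and Jak1 1.74-fold above it in FT replicate 2, and in the middle class Il11ra1 and Cntfr were above it and Osmr and Socs3 below it in all 3 libraries. Lifr in FT replicate 3 lay at the percentile 1.06 of all genes and Osmr in FN replicate 2 at 3.72. The part of gene length in the values of these genes was not tested.

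Finally, the genes most like Socs3 and Osmr across libraries were listed by the Pearson correlation of log2 CPM, as a description over points that share depth and the libraries that stand apart. Over 12 libraries Socs3 was most like Bhlhe40 (0.90), Dll4 (0.90) and Pias3 (0.89). Over the 9 libraries it was most like Fos (0.97), Gadd45g (0.97) and Snw1 (0.95), of which Fos and Gadd45g are genes of the early response to stress and stimulation. Among the members, its correlation over 12 and over 9 libraries turned from 0.67 to -0.02 for Stat3, from 0.64 to -0.53 for Osmr, from 0.59 to -0.67 for Lifr and from 0.39 to -0.66 for Il6st. It was negative over both for Jak1 (-0.38 and -0.83), Cntfr (-0.64 and -0.17) and Jak2 (-0.20 and -0.12). Osmr was most like Gpt2 (0.99), Sf3a1 (0.99) and Aqp1 (0.98) over 12 libraries and Stard13 (0.92), Fam20b (0.92) and Sort1 (0.91) over 9, so no gene was shared between the lists of 3 for either gene.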

How the data were processed

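The authors made SMART-seq2 libraries, called bases with CASAVA 1.8.2, aligned single reads to mm9 with TopHat2, handled them with SAMtools and counted reads on genes with HTSeq. The other versions, the annotation and the strand setting were not given in the sources used here. The deposited files give raw whole counts per gene symbol (22609 symbols). Reads without a gene name, 76.3% to 88.8% of all reads, were left out. Nothing says that replicates were separate experiments beyond separate pools of mice, so p-values measure the spread between pools.

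CPM and RPKM were computed from the deposited counts, with exon lengths of GENCODE M1 (NCBIM37) for 21627 symbols. Groups were taken from the sample labels. Counts of the 2 groups compared (6 libraries) were fitted with edgeR 4.0.16 (R 4.3.3, TMM, filterByExpr with a minimum count of 10 and a minimum total of 15, quasi-likelihood test, Benjamini-Hochberg adjustment over all genes tested). The interaction used 12 libraries. Between the sexes, X and Y genes were dropped. The second rule was that of the study (unadjusted p below 0.05, change above 1.5-fold, above 5 RPKM on average in one group). Alternatives were the DESeq2 1.42.0 test, DESeq2 size factors, limma-voom with sample quality weights (limma 3.58.1), no filter, a replicate block, fits of 12 and of 9 libraries, each library left out, and CPM with TMM-scaled totals. Scripts were tested on simulated data. The 10 genes and all lists were chosen with earlier results of these data known. Named were the 10 genes and listed genes, cell type markers aside, that met a call rule. The 3 genes most correlated with Socs3 and Osmr among 9542 of mean CPM over 10 were also named. Other listed genes were named to describe a count, after their values were seen. No pair of replicates agreed within counting noise (chi-square per degree of freedom 6.18 to 199). Python 3.11.15, numpy 2.4.6, pandas 2.3.3 and matplotlib 3.10.9 were used. The values of 1 listed gene are not reported here.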

Additional observations from a re-analysis of the deposited data

How the results depend on the processing

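Of 700 values for the 10 genes under alternatives, 687 kept both direction and call or changed direction by less than 1 SE. Another 4 had an adjusted p under 0.05 only under the alternative, and 9 changed direction by more than 1 SE. Of the values with an unadjusted p under 0.05 in the main fit, 0 changed direction. None of the 10 genes was called in a main fit, so no call could be lost. A change in size alone was not counted, so the tally does not measure how stable the sizes were. With another test, 51 genes (DESeq2) and 30 genes (limma-voom) had an adjusted p under 0.05 in MT versus MN against 6 with edgeR, and 20 without a filter, 3 with 9 libraries and 0 with 12 libraries in one fit. Of the members in MT versus MN, 1 (Socs3) was called by DESeq2, and 2 (Socs3 and Cntfr) met the criteria with limma-voom. In the fit of 12 libraries 0 of the members met the criteria, where 21 genes did against 117.

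In FT versus FN, limma-voom called 1 gene and put 353 genes and 1 member in the criteria, against 102 and 0, and 192 genes met them without a filter and 301 with 12 libraries. In FN versus MN, DESeq2 called 68 genes and limma-voom 974, with 2 members, against 0, and 54 were called with 9 libraries. The criteria were met by 659 genes with DESeq2 against 425, and by 1 member with limma-voom and 1 with 9 libraries. In FT versus MT, DESeq2 called 190 genes, limma-voom 3 and the 9 libraries 1, against 0, and 286 genes met the criteria with 9 libraries against 927. Without a filter, with DESeq2 and with limma-voom 2 members met them, against 0. The cause of these differences was not tested.

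Deviations of same-numbered libraries from their group means had correlations from -0.35 (FN and FT replicate 3) to 0.57 (FN and FT replicate 1). These values do not settle whether the replicate numbers pair the samples, and the main fits used no pairing. With the replicate block the genes called were 12 in MT versus MN and 21 in FT versus MT, those meeting the criteria 59 in FT versus FN and 215 in FN versus MN, and 2 members met them in FT versus MT. No member was called with the block.

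Leaving out 1 library at a time gave 2 (without MN replicate 1, MN replicate 2 or MT replicate 2) to 34 called genes (without MT replicate 3) and 96 to 195 (without MT replicate 1) meeting the criteria in MT versus MN, with 0 to 1 member. In FT versus FN 11 (without FT replicate 2) to 488 genes (without FT replicate 1) met the criteria. In FN versus MN 0 to 728 genes were called (728 without FN replicate 2) and 122 (without MN replicate 2) to 1087 (without FN replicate 3) met the criteria, with 0 to 1 member by either rule. In FT versus MT 356 (without MT replicate 2) to 2868 genes and 0 to 5 members met the criteria, both highest without FT replicate 1. The mean CPM of Stat3 in MN was 661 with TMM-scaled library sizes, against 687. Depth limits Il6ra, Il11ra1, Jak2 and the ligands, and the 3 libraries that stood apart limit every female value.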
